A study of Mus musculus with 6 samples.

Results

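Long coding regions were examined in SCCc, cultured mouse squamous cell carcinoma cells that carry *HrasG12V* and a knockout of *Tgfbr2*. The regions were chosen by 3 criteria, a counted coding sequence (CDS) of at least 5000 nt, a single gene name, and at least 100 RNA-seq counts on exons summed over both RNA-seq libraries. Of 23698 counted gene entries, 439 met these criteria, which is 2.19% of the 20034 single-name entries with a CDS. Since RNA-seq counts chose the members, their RNA level is a description and not a finding.

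The cells derive from primary keratinocytes of the back skin of newborn *Tgfbr2* fl/fl mice, were kept in low-calcium medium, and were used between passages 10 and 15. They form 1 cultured line, so the values describe this line and not tumours of several animals. The libraries analysed were 1 ribosome profiling library, with 3549555 counts on exons, and 2 RNA-seq libraries of the same cells, with 10707930 counts in replicate 1 and 14003713 in replicate 2. Further ribosome profiling libraries of these cells that the study used, the wild-type keratinocyte libraries and the long-read libraries were not analysed here, so no value below is a change between normal and tumour cells. Nothing in the labels shows that the RNA-seq replicates came from separate cultures, and their spread may be technical. Keratinocyte markers matched the label, since the 9 listed genes summed to 15773 RPKM (reads per kilobase of counted length, scaled to the exon counts of the library) in RNA-seq replicate 1 and 17939 in replicate 2, with *Krt5*, the basal layer keratin, as the most abundant. The 8 fibroblast markers summed to 11.6 and 18.7 RPKM, the 6 immune markers to 38.0 and 46.2, of which *Cd68* made up most while *Cd3e* and *Cd207* were at 0, the 6 melanocyte markers to 5.54 and 5.68, and the 4 endothelial markers to 0.505 and 0.652. In bulk libraries such as these, fewer cells of a type and less RNA per cell cannot be told apart.

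Ribosome profiling sequences the mRNA fragments that translating ribosomes shield from nuclease, called footprints, and RNA-seq measures how much of each mRNA is present. Their ratio, the translational efficiency, gives the ribosome density on an mRNA, which depends on how often ribosomes start and on how fast they move along the CDS. Very long coding regions encode giant proteins such as plakins, which tie intermediate filaments to cell junctions, spectrins and filamins of the cell cortex, motors, laminins, cadherins and many chromatin regulators. In the epidermis the giant plakins and laminins hold keratinocytes to each other and to the basement membrane.

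The bases around the start codon are shown first, because the ribosome selects its start there and members with high and low translational efficiency can be compared letter by letter. Each line gives 12 bases of the 5′UTR, the start codon in capitals and the next 12 bases of the CDS, read 5′ to 3′ from the GENCODE M21 transcript sequences of the GRCm38 mouse genome. Among members with at least 100 RNA-seq counts in each library and 80% of the annotated CDS counted, the limits used for naming genes, the first 4 had the highest values and the next 4 the lowest, and the last 3 are a desmosomal plakin, a cytolinker and a giant scaffold of keratinocytes.
Akap12: agccactgagccATGggtgcaggcagt
Kif14: cttgctgccaagATGtcagtacacact
Cenpf: aaataaaacaagATGagctgggccctg
Pole: tggagcgtcgcaATGgtcctgaggaac
Greb1: tgtgctccggagATGggcaattcctat
Eml5: gggcgcaccgacATGgcggctcggagc
Fras1: gccgcggcggcgATGggtgtcctcaaa
Med12l: acatgagagatcATGgccgccttcggg
Dsp: gtgaccgcagacATGagctgcaacggc
Plec: cttccagcagccATGgtggctggcatg
Ahnak: agtcctgcaaagATGgagaaggaggaa

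The genes of the first 4 lie at chr10:4266380-4359470 (*Akap12*, + strand), chr1:136466343-136531511 (*Kif14*, + strand), chr1:189640606-189688086 (*Cenpf*, - strand) and chr5:110286306-110337474 (*Pole*, + strand). Those of the next 4 lie at chr12:16670615-16800886 (*Greb1*, - strand), chr12:98786805-98901484 (*Eml5*, - strand), chr5:96373955-96784728 (*Fras1*, + strand) and chr3:59005825-59318682 (*Med12l*, + strand). *Dsp* lies at chr13:38151294-38198577 on the + strand, *Plec* at chr15:76170974-76232574 on the - strand and *Ahnak* at chr19:8989284-9076914 on the + strand. A purine 3 bases before the start codon and a G just after it are the best known features of a favourable start site in mammals. All 11 of these starts have the purine, and 8 have the G. The G follows the start codon in all 4 of the low members shown and in 2 of the 4 high ones, which is too few to compare. Of the low members shown, *Eml5* and *Med12l* had only 8.88% and 9.38% of their RNA-seq counts on the CDS. Against RNA on the CDS they lay at -1.65 and -0.88, so *Med12l* is not low on that measure. Across all members with an annotated start context (392), 89.0% had the purine and 52.0% the G, against 86.5% and 53.9% of 9510 reference genes.

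Translational efficiency was computed by dividing the RPKM of footprints on the CDS by that of RNA-seq on exons, averaged over both replicates. It is given on the log2 scale relative to the median of 9800 reference genes, which are all single-name genes of any length with footprints and at least 100 RNA-seq counts. One unit is a doubling of the ratio, and values above 1 and below -1 are called high and low. With 1 ribosome profiling library analysed here, the footprints have no replicate in these values and no test was made. Intervals are exact 95% Poisson intervals on the footprints that cover counting error only, and ± gives the SD over the RNA-seq replicates.

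Of the 439 members, 434 had footprints and 5 had none. The median log2 translational efficiency of the 434 was -0.90 ± 0.03 (n = 2 RNA-seq replicates), which is a 1.87-fold lower ratio than in the median reference gene. With the 5 others set at a floor of 3 footprints, the median was -0.91. Low values were frequent, as 203 members (46.8%) lay below -1, against 21.2% of the reference genes. High values were rare, as 18 members (4.15%) lay above 1, against 20.7% of the reference genes. The interval lay wholly below -1 for 154 members (35.5%, against 12.6% of the reference genes) and wholly above 1 for 12 (2.76%, against 15.5%), where footprints were fewer in the reference genes, with a median of 97.7 against 172. The members differed less among themselves than the reference genes did, with an SD of 1.06 against 1.42, but still ranged from -5.20 to 2.58. Together they took 4.40% of all footprints on CDS and of the RNA-seq counts on exons 6.98% in replicate 1 and 6.80% in replicate 2. Of the members, 307 had at least 100 footprints and 17 fewer than 10.

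The low median continued a gradient over all lengths, which the plot of translational efficiency by CDS length shows. The median was 1.67 in 353 reference genes with a CDS under 300 nt and -0.04 in 3614 genes between 1000 and 2000 nt. In 294 genes just short of the members, between 4000 and 5000 nt, it was -0.78, and in the 303 members between 5000 and 7500 nt it was -0.77. The length limit therefore marks no step in these data. Among the members the decline went on, with a median of -0.88 in 88 members between 7500 and 10000 nt. It was -1.35 in the 43 members of 10000 nt or more, of which 31 lay below -1 (72.1%, against 46.8% of all members). Spearman's correlation between translational efficiency and CDS length was -0.16 across the 434 members and -0.42 across the 9800 reference genes, which are descriptions since genes are not independent replicates and both quantities share the counted length. Without division by length the median of the members was -0.27, with 52 members above 1 (11.98%, against 19.0% of reference genes) and 87 below -1 (20.05%, against 21.3%). On that scale, which sets footprints on the CDS against RNA-seq on exons, low members were about as frequent as low reference genes. With RNA-seq counted on the CDS, where the same length divides both counts, 34.8% of members lay below -1, against 19.6% of reference genes. The part of the excess that depends on the division by length was not tested.

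**Figure D1:**
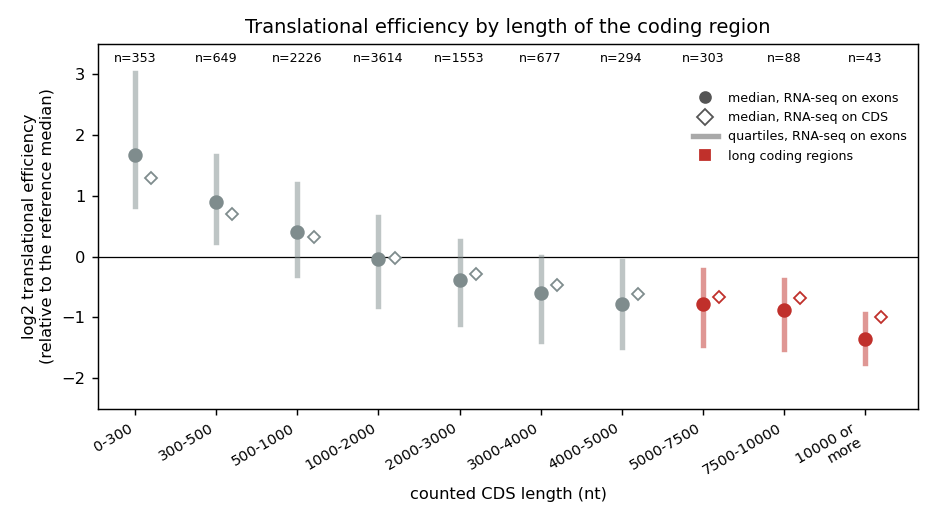
Log2 translational efficiency relative to the reference median (vertical axis) by counted CDS length in nt (horizontal axis), with circles at the median against RNA-seq on exons, bars at its quartiles and diamonds at the median against RNA-seq on the CDS. The medians decline from 1.67 in the shortest bin to -1.35 in the longest, and the 3 bins of long coding regions (red) start at -0.77, level with the -0.78 of the bin before them.

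The median RNA level was 9.98 RPKM in the members and 15.3 in the reference genes, and the median footprint level was 7.06 and 18.7 RPKM. Among the 44 members with the most RNA, a group chosen on the denominator of the ratio, 24 lay below -1 (54.5%, against 46.8% of all members), none above 1 and 2 above 0 (4.55%, against 17.1%), and their median was -1.02. *Itgb4*, the integrin subunit that anchors basal keratinocytes to the basement membrane, led both lists with 259 RPKM of footprints and 237 and 261 RPKM of RNA in replicates 1 and 2. It lay at -0.26 (95% interval -0.30 to -0.22). *Cltc*, the clathrin heavy chain, and *Myof*, a ferlin of membrane repair, came next by footprints and by RNA, respectively, and were picked after their values were seen. *Cltc* had 209 RPKM of footprints over 152 and 131 RPKM of RNA and lay at 0.25, whereas *Myof* had 114 RPKM of footprints over 190.2 and 183 RPKM of RNA and lay at -1.03. In the other direction, 12 of the 18 high members had fewer than 1000 RNA-seq counts over both libraries, where the median of all members was 2337. The share of all members under 1000 counts was not computed. The median RNA level of the 18 high members was 3.24 RPKM, against 9.66 RPKM for the members between -1 and 1. Across the 434 members the Spearman correlation with RNA level was -0.16, whereas it was 0.13 across the reference genes. RNA level is the denominator of the ratio, so the measures are not independent.

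**Figure D2:**
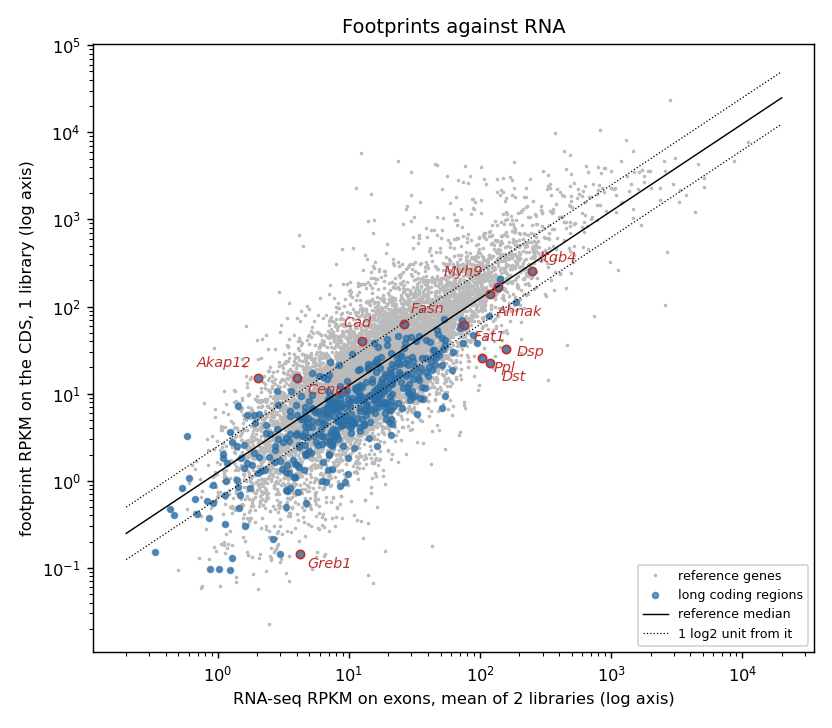
Footprint RPKM on the CDS (vertical log axis, 1 library) against mean RNA-seq RPKM on exons (horizontal log axis, 2 libraries) for reference genes (grey) and long coding regions (blue), with the reference median as a solid line and 1 log2 unit on either side dotted. Most long coding regions lie below the solid line, with *Dsp*, *Ppl* and *Dst* far under it at over 100 RPKM of RNA and *Akap12* far above it at 2.02 RPKM.

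Protein classes, assigned from textbook roles to 348 of the 439 members, differed in their medians. Metabolic enzymes and the proteins of DNA repair, replication and mitosis had the most footprints per RNA. Cell surface receptors and cadherins, plakins and junction scaffolds, and ion channels and transporters had the fewest. Across the alternatives of processing that kept the length limit, metabolic enzymes stayed first of 14 classes and DNA repair, replication and mitosis stayed at rank 2, while the surface, ion channel and plakin classes stayed between ranks 10 and 14. Without division by length, the medians of DNA repair, replication and mitosis (0.70), of RNA processing, nuclear pore and translation (0.16) and of ubiquitin enzymes (0.08) were above 0, and the other classes except metabolic enzymes stayed below. Each gene was put in 1 class by judgement and the class values depend on such choices, as with *Ticrr* and *Atad5*, which act in replication, and *Pcm1*, a protein around centrioles, all left unclassified, and with *Ankrd11*, a chromatin regulator at -2.05 that was counted in DNA repair, replication and mitosis. *Atad5*, *Pcm1* and *Ankrd11* were picked after their values were seen, and the class values with such genes moved were not computed. The classes overlapped widely, as the strip plot by class shows, and no test was made of their differences.

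**Figure D3:**
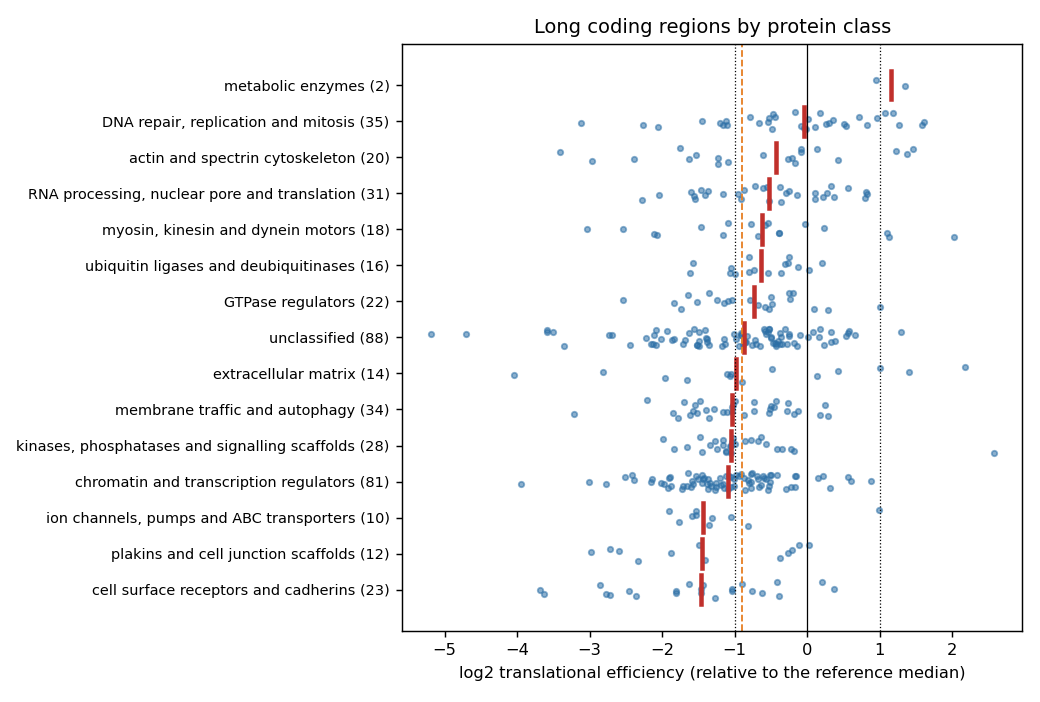
Log2 translational efficiency relative to the reference median (horizontal axis) of each long coding region (points) by protein class (vertical axis, members with footprints in brackets), with class medians in red, the median of all members dashed in orange, and 1 and -1 dotted. The class medians run from 1.15 for the 2 metabolic enzymes to -1.47 for surface receptors and cadherins, and single members spread by several log2 units within most classes.

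The metabolic class held only 2 giant multifunctional enzymes, both with more footprints per RNA than the median gene. *Cad*, whose protein starts pyrimidine synthesis, had 39.7 RPKM of footprints over 12.5 RPKM of RNA in each replicate, at 1.35 (1.26 to 1.44). *Fasn*, the fatty acid synthase, had 62.9 RPKM of footprints over 24.5 and 27.9 RPKM of RNA, at 0.95 (0.88 to 1.02), so its interval reached the limit of 1. These 2 enzymes carried 1.86% of the footprints of all members and 0.477% and 0.539% of their RNA-seq counts in replicates 1 and 2.

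The 35 members of DNA repair, replication and mitosis had a median of -0.04 ± 0.17, near that of the reference genes and far above that of the members as a whole. Of these, 5 lay above 1 (14.3%, against 4.15% of all members and 20.7% of reference genes) and 8 below -1 (22.9%, against 46.8% and 21.2%). Above 0 lay 16 of the 35, against 74 of all 434 members (17.1%). *Cenpf*, a kinetochore protein of dividing cells, led them with 485 footprints over 568 and 502 RNA-seq counts, at 1.61 (1.48 to 1.74). A further 180 footprints of *Cenpf* lay on its 3′UTR, so 72.4% were on the CDS, against 97.3% in the median member. The source of these 180 was not tested. *Pole*, the catalytic subunit of the leading-strand DNA polymerase, followed at 1.59 (1.41 to 1.76), with 258 footprints over 229 and 267 RNA-seq counts. *Casc5*, a scaffold of the outer kinetochore, lay at 1.26 (1.07 to 1.44). *Mki67*, the proliferation marker that coats mitotic chromosomes, had 34.1 RPKM of footprints over 19.2 and 14.3 RPKM of RNA, at 0.71 ± 0.29. Some members that act in the response to DNA damage stood lower. *Prkdc*, the DNA-dependent protein kinase of end joining, had 2.57 RPKM of footprints over 4.96 and 4.26 RPKM of RNA, at -1.16 (-1.44 to -0.89), a call lost with RNA-seq on the CDS (-0.87), with a pseudocount of 1 RPKM (-0.92) and without division by length (-0.18), and *Rev3l*, the catalytic subunit of a translesion polymerase, was the lowest of the class at -3.11 (-3.66 to -2.62) with 32 footprints. The repair genes *Brca1* at 1.18 and *Brca2* at 0.83, picked after their values were seen, lay at the other end, so the class does not divide into a high mitotic and a low repair group. Against replicate 1 alone *Brca1* lay at 0.95 and *Casc5* at 0.97, so both lose the call without replicate 2.

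This class also differed most between the RNA-seq replicates. Its RNA was lower in replicate 2 for 33 of 35 members, with a median log2 difference of -0.22, whereas that of all members was -0.07 and 281 of 434 were lower. *Casc5* fell from 4.43 RPKM in replicate 1 to 2.80 in replicate 2, and its translational efficiency was 0.97 against replicate 1 alone and 1.61 against replicate 2 alone. *Cenpf* lay at 1.36 and 1.90 in the same comparison. The class median was -0.16 against replicate 1 and 0.08 against replicate 2, so the difference between replicates moves it across the reference median. Surface receptors and cadherins went the other way, with a median difference of 0.14 and lower RNA in replicate 2 in only 2 of 23 members. *Celsr2*, an atypical cadherin of planar cell polarity, had 0.990 RPKM of RNA in replicate 1 and 1.57 in replicate 2, one of the 3 largest differences among members under the limits for named genes. Across the 434 members the Spearman correlation between translational efficiency and this replicate difference was -0.26, and both measures use the same RNA-seq counts. The part of the replicate difference in the class values was not tested. The SD of the log2 difference between replicates was 0.19 across the 434 members and 0.20 across the reference genes, and the replicates were kept as separate samples.

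**Figure D4:**
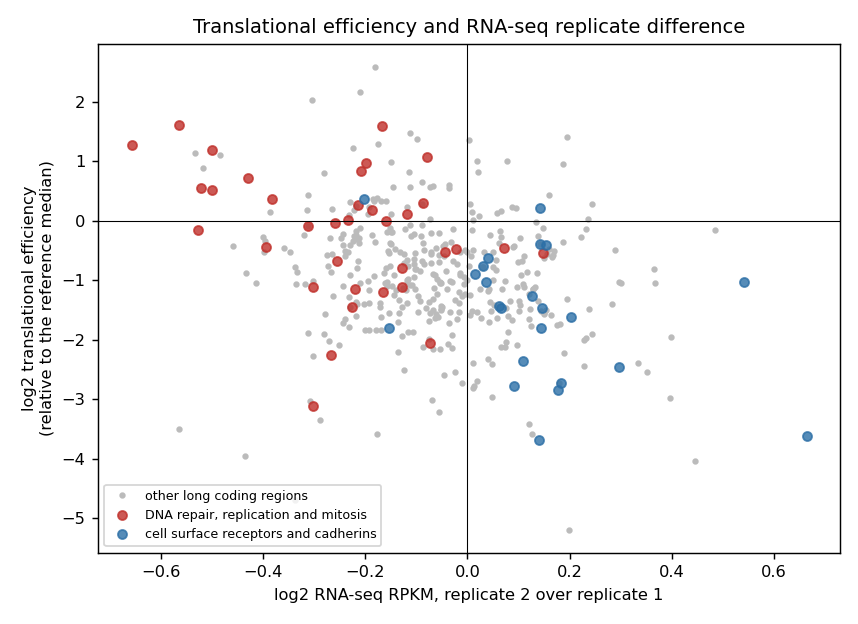
Log2 translational efficiency relative to the reference median (vertical axis) against the log2 ratio of RNA-seq RPKM in replicate 2 over replicate 1 (horizontal axis), each point a long coding region. DNA repair, replication and mitosis (red) lies mostly to the left, with 33 of 35 members lower in replicate 2, and surface receptors and cadherins (blue) mostly to the right, with 2 of 23 lower.

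The cytoskeletal classes held some of the highest and some of the lowest members. The 20 proteins of the actin and spectrin cytoskeleton with footprints had a median of -0.44 ± 0.10. Of these, 3 lay above 1 (15.0%, against 4.15% of all members) and 9 below -1 (45.0%, close to the 46.8% of all members). One of the 3, *Syne1*, a nesprin picked after its value was seen, had only 50.6% of its annotated CDS counted and lay at 1.22 (0.99 to 1.43). *Cit*, a kinase of the cytokinetic ring, lay at 1.46 (1.20 to 1.72), and *Map1b*, a microtubule-associated protein best known from neurons, at 1.37 (1.25 to 1.48) with 608 footprints. *Cit* could also be counted with the kinases, and *Map1b* is neither an actin nor a spectrin protein by this description. The class values without *Cit* and *Map1b* were not computed. *Tln1*, which couples integrins to actin, lay near the reference at 0.13, with 22.5 RPKM of footprints over 16.1 and 16.8 RPKM of RNA. *Ahnak*, a giant scaffold under the plasma membrane, had 5903 footprints, 139 RPKM of footprints over 123 and 114 RPKM of RNA, and lay at -0.08. *Flna*, a filamin that crosslinks actin into networks, stood lower at -1.23 (-1.32 to -1.14), with 46.8 RPKM of footprints over 84.7 and 92.2 RPKM of RNA. *Syne2*, a nesprin that links the nucleus to actin and the member with the third longest counted CDS at 20526 nt, lay at -1.54. The annotated CDS of *Syne1*, at 26520 nt, is longer than that of *Syne2*, at 20786 nt.

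Among 18 motors with footprints the median was -0.63 ± 0.02, with 3 above 1 (16.7%, against 4.15% of all members) and 7 below -1 (38.9%, against 46.8%). The 3 above 1 were mitotic kinesins, and 2 of these calls depend on RNA-seq replicate 2. *Kif14*, a kinesin of cytokinesis, lay at 2.03 (1.77 to 2.27) with 7.26 RPKM of footprints over 1.58 and 1.28 RPKM of RNA, and the others, *Kif20b* at 1.13 (1.01 to 1.25) and *Cenpe* at 1.10 (0.96 to 1.24), were picked after their values were seen. Against replicate 1 alone *Kif20b* lay at 0.89 and *Cenpe* at 0.88. *Myh9*, the heavy chain of nonmuscle myosin IIA, had 166 RPKM of footprints over 130.04 and 143 RPKM of RNA and lay at -0.03. The dynein heavy chains were low. *Dync1h1*, of the cytoplasmic dynein that carries cargo along microtubules, lay at -2.12 (-2.26 to -1.98) with 8.37 RPKM of footprints over 28.6 and 29.9 RPKM of RNA. *Dync2h1*, of the dynein of cilia, lay at -3.04 (-3.70 to -2.45) with 23 footprints.

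The 12 plakins and cell junction scaffolds had few footprints for the amount of their RNA. Their median RNA level of 32.9 RPKM was the highest of any class, and their median translational efficiency was -1.45 ± 0.13, against -0.90 for all members. None lay above 1 (against 4.15% of all members) and 7 below -1 (58.3%, against 46.8%). The class carried 8.27% of the footprints of all members and 12.6% and 13.2% of their RNA-seq counts in replicates 1 and 2. *Itgb4*, which is no plakin but was put in this class as a hemidesmosome protein, had 4978 of these footprints and lay at -0.26, well above the class median. Without it the shares were 4.73% of the footprints and 10.5% and 10.9% of the RNA-seq counts, and the median of the other 11 was -1.49. *Dst* encodes dystonin with the hemidesmosomal plakin BPAG1e and has the longest counted CDS of all members at 27111 nt. In its representative transcript the CDS is 23151 nt. *Dst* had 22.6 RPKM of footprints over 121 and 119.6 RPKM of RNA and lay at -2.72 (-2.79 to -2.66). *Dsp*, desmoplakin, the plakin of desmosomes, had 32.5 RPKM of footprints over 161 and 156 RPKM of RNA, at -2.60 (-2.69 to -2.51). *Ppl*, periplakin, had 25.7 RPKM of footprints over 103 and 105 RPKM of RNA, at -2.33 (-2.46 to -2.20). These 3 genes were thus far below the reference median with footprint counts between 481 and 2175, where counting error is small.

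Other plakins were low with less RNA. *Plec*, plectin, the cytolinker of hemidesmosomes, lay at -1.49 (-1.58 to -1.40) with 18.9 RPKM of footprints over 39.3 and 46.3 RPKM of RNA. *Macf1*, which links actin to microtubules, lay at -1.87 (-2.03 to -1.72). *Eppk1*, epiplakin, was the lowest of the class at -2.98 (-3.49 to -2.51) with 36.6 footprints, and 32.1% of the 28-base words of its CDS recur within it, so short reads cannot be placed uniquely there. *Evpl*, envoplakin, the partner of periplakin in the cornified envelope, was the exception among plakins at -0.12 (-0.31 to 0.06), with 11.1 RPKM of footprints over 9.18 and 10.2 RPKM of RNA. The envelope partners *Ppl* and *Evpl* therefore differed by over 2 log2 units in ratio, with mean RNA levels of 104 and 9.68 RPKM. *Shroom3*, an actin-binding protein of apical junctions, was the highest of the class at 0.03 (-0.19 to 0.24).

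**Figure D5:**
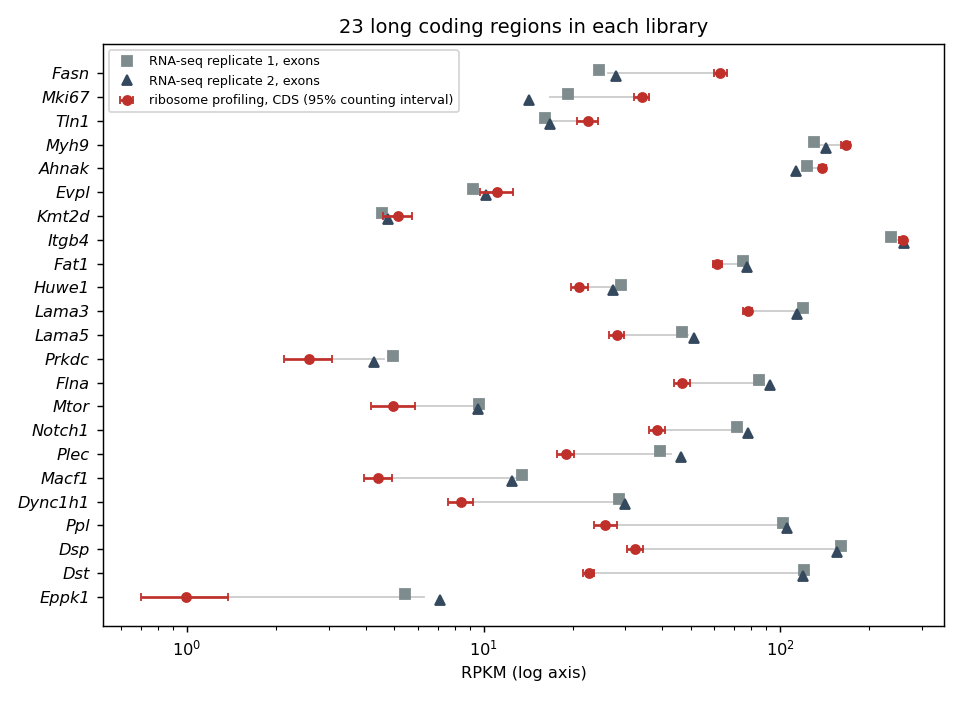
RPKM (horizontal log axis) of 23 long coding regions (vertical axis, ordered by translational efficiency) in the ribosome profiling library (red circles on the CDS, bars for 95% counting intervals) and in RNA-seq replicates 1 (squares) and 2 (triangles) on exons. The RNA-seq replicates differ most in *Mki67* (19.2 and 14.3 RPKM) and *Eppk1* (5.42 and 7.14 RPKM), and the footprints of *Dst*, *Dsp*, *Ppl* and *Eppk1* lie several-fold below the RNA and those of *Fasn* and *Mki67* above it.

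Extracellular matrix genes were the most uneven class. The 14 members had a median of -0.98 ± 0.08 and an SD of 1.67. Of these, 3 lay above 1 (21.4%, against 4.15% of all members) and 7 below -1 (50%, close to the 46.8% of all members). *Col4a1*, a chain of basement membrane collagen, had 17.2 RPKM of footprints over 4.87 and 5.57 RPKM of RNA, at 1.40 (1.24 to 1.57), and its partner chain *Col4a2*, picked after its value was seen, lay at 1.00 and at 0.95 against replicate 2 alone. The laminin chains differed. *Lamb1*, a beta chain picked after its value was seen, lay at 0.14 with 72.1 RPKM of footprints. *Lama3*, the alpha chain of the laminin under keratinocytes, had 77.7 RPKM of footprints over 119.5 and 114 RPKM of RNA, at -0.90 (-0.96 to -0.85). *Lama5*, another laminin alpha chain, lay at -1.11 (-1.20 to -1.03), but at -0.85 with RNA-seq on the CDS and -0.13 without division by length, where it is no longer low. *Fras1*, which joins epidermis and dermis in the embryo, was the lowest at -4.04, where 4 footprints leave an interval from -5.91 to -2.68.

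Proteins of the cell surface had the lowest class median, though it differed from that of the plakins by less than the spread over the RNA-seq replicates. The 23 receptors and cadherins lay at -1.47 ± 0.08, with none above 1 (against 4.15% of all members) and 16 below -1 (69.6%, against 46.8%). *Ptprz1*, a receptor tyrosine phosphatase, was the highest at 0.36 (0.28 to 0.45), with 43.6 RPKM of footprints over 29.2 and 25.4 RPKM of RNA. *Fat1*, a giant atypical cadherin that restrains growth in squamous epithelia, had 61.5 RPKM of footprints over 75.1 and 77.2 RPKM of RNA, at -0.62 (-0.67 to -0.57). *Notch1*, the receptor that drives keratinocytes to differentiate, had 38.4 RPKM of footprints over 71.3 and 77.9 RPKM of RNA, at -1.27 (-1.36 to -1.19). *Celsr2* was the lowest under the limits for named genes at -3.63, with 4 footprints and an interval from -5.50 to -2.27. The 10 ion channels, pumps and ABC transporters were similarly low at -1.44 ± 0.05, with 8 below -1 (80%, against 46.8% of all members). Their highest member, *Abca12*, the lipid transporter of the skin barrier, stood apart at 0.99 (0.90 to 1.07) with 1052 footprints, and their lowest was *Trpm7*, a channel with a kinase domain, at -1.91 (-2.15 to -1.68).

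Chromatin and transcription regulators were the largest class, and most were below the reference median, as were most members of any class. Of the 81 members, 46 lay below -1 (56.8%, against 46.8% of all members) and none above 1 (against 4.15%). Above 0 lay 6 of the 81, against 74 of all 434 members (17.1%). The class median was -1.10 ± 0.02, against -0.90 for all members. *Phip*, a bromodomain protein, was the highest at 0.88 (0.72 to 1.04). *Kmt2d*, a histone H3 lysine methyltransferase, had 5.14 RPKM of footprints over 4.56 and 4.76 RPKM of RNA, at -0.17 (-0.34 to -0.01), high for its CDS of 16764 nt. *Med12l*, a paralog of a Mediator subunit, was the lowest at -3.95, with 4.93 footprints over 332 and 321 RNA-seq counts. Only 9.38% of its RNA-seq counts fell on the CDS, and against RNA on the CDS it lay at -0.88, so its place among the lowest rests on RNA-seq counts outside the CDS. The structural classes, that is plakins, junction scaffolds and the actin and spectrin cytoskeleton together, had a median of -0.85 in 32 members. This was 0.25 above chromatin regulators, but the difference was -0.07 when only genes with over 1 RPKM in each RNA-seq library and a base mean above 25 were kept, and -0.25 among members of 7500 nt or more, so these data give no stable order of structural and chromatin proteins.

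The machinery of RNA and protein turnover lay between these extremes. The 31 members of RNA processing, nuclear pore and translation had a median of -0.52 ± 0.08. None lay above 1 (against 4.15% of all members) and 9 below -1 (29.0%, against 46.8%). Above 0 lay 10 of the 31, against 74 of all 434 members (17.1%). *Nup98*, a nucleoporin, was the highest at 0.82 (0.72 to 0.92), with 42.6 RPKM of footprints over 20.2 and 18.6 RPKM of RNA, and *Zfc3h1*, which directs nuclear RNA to the exosome, the lowest at -2.28 (-2.49 to -2.07). The 16 ubiquitin ligases and deubiquitinases were the most alike among classes of over 2 members, with an SD of 0.53 around a median of -0.64 ± 0.07. None of the 16 lay above 1 (against 4.15% of all members) and 4 below -1 (25%, against 46.8%). *Huwe1*, a HECT ubiquitin ligase, had 21.1 RPKM of footprints over 29.1 and 27.4 RPKM of RNA, at -0.74 (-0.83 to -0.65). *Usp9x*, a deubiquitinase, was the highest of these at 0.20, and *Mycbp2*, a ligase of neurons, the lowest at -1.61.

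Signalling and trafficking proteins lay on both sides of the median of all members. The 22 GTPase regulators had a median of -0.73 ± 0.06, with 10 below -1 (45.5%, against 46.8% of all members). *Arhgap21*, a GTPase-activating protein, was the lowest of them at -2.55 (-2.85 to -2.26). The 34 members of membrane traffic and autophagy had a median of -1.03 ± 0.05. None of the 34 lay above 1 (against 4.15% of all members) and 18 below -1 (52.9%, against 46.8%). *Nbeal2*, needed for platelet granules, was the highest of them at 0.28. The 28 kinases, phosphatases and scaffolds had a median of -1.05 ± 0.03, with 17 below -1 (60.7%, against 46.8%) and a single member above 0 (against 17.1% of all members). That member, *Akap12*, a scaffold that anchors protein kinases A and C, was the highest of all long coding regions, with 269.7 footprints over 140 and 162 RNA-seq counts. Its 15.0 RPKM of footprints over 2.15 and 1.90 RPKM of RNA gave 2.58 ± 0.12. *Mtor*, the kinase of the nutrient-sensing pathway, lay at -1.27 (-1.52 to -1.03), and *Sbf2*, a pseudophosphatase, was the lowest at -1.99.

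The 88 unclassified members with footprints had a median of -0.87 ± 0.03 and included the lowest values of all. *Ticrr*, a regulator of replication initiation, was their highest at 1.29 (1.02 to 1.56). *Greb1*, known as an estrogen-induced gene, had 3 footprints over 350 and 525 RNA-seq counts, at -5.20 (-7.47 to -3.65). *Eml5*, a microtubule-associated protein, also had 3 footprints and lay at -4.70 (-6.98 to -3.15), but 8.88% of its RNA-seq counts fell on the CDS, and against RNA on the CDS it lay at -1.65. Of the 203 low members, 117 had at least 100 footprints. Among them *2610507B11Rik*, of the membrane traffic class, had 163 footprints over 3954 and 4976 RNA-seq counts, at -3.21 (-3.44 to -2.99). *Pcnx*, a membrane protein related to fly pecanex, lay at -3.58 (-4.26 to -2.98) with 22 footprints, *Gm608* at -3.58 with 23, and *9930021J03Rik* at -3.35 with 26.9.

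The 5 members without footprints are all named here and were picked because of that value. Set at the floor of 3 footprints, which is below the 3.69 that the 95% interval for a count of 0 reaches and so gives no upper limit, their translational efficiency would be -2.96 in *Sptb*, the erythroid beta spectrin, -3.65 in *Dnah17*, an axonemal dynein, -3.77 in *Pkd1l3*, a polycystin of taste cells, -4.02 in *Igsf10* and -4.40 in *Mroh2a*. In 3 of them most RNA-seq counts lay outside the CDS. The share on the CDS was 0.286% in *Igsf10*, 14.2% in *Sptb* and 15.3% in *Mroh2a*, against 73.2% in *Dnah17* and 98.5% in *Pkd1l3*. For *Igsf10* the RNA-seq libraries held 0 and 1 counts on the CDS, so footprints could not be set against coding RNA.

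RNA-seq counts can also be taken on the CDS alone. In the median member 87.5% of the RNA-seq counts and 97.3% of the footprints on exons lay on the CDS, against 68.7% and 93.7% in the median reference gene. With RNA-seq counted there the median of the members was -0.71, and Spearman's correlation between both versions was 0.98 across members. All 18 high members stayed above 1 and 148 of the 203 low members stayed below -1. Against each RNA-seq replicate alone, 12 of the 18 high and 188 of the 203 low members kept their call in both. Among genes described here, *Mtor* (-0.99), *Tet3* (-0.61) and *Zfhx4* (-0.99) were also no longer low with RNA-seq on the CDS. Without division by length the same held for *Mtor* (-0.43), *Zfhx4* (-0.81), *Flna* (-0.71), *Macf1* (-0.95), *Mycbp2* (-0.70), *Notch1* (-0.59), *Plec* (-0.76), *Syne2* (-0.60), *Scrib* (-0.32) and *Cul7* (-0.83). With a pseudocount of 1 RPKM, *Zfhx4* (-0.47) was no longer low and *Ticrr* (0.96) no longer high.

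Base composition varied with translational efficiency. The median GC content at the third codon position was 54.0% in members and 60.2% in reference genes. The median translational efficiency was -0.55 in 60 members with less than 40% GC at this position, -0.99 in 117 members between 50% and 60%, and -1.16 in 35 members of 70% or more. Spearman's correlation was -0.20 across 433 members and -0.12 across 9748 reference genes. The order of the classes did not follow it consistently. The class median of this GC content was 44.3% in DNA repair, replication and mitosis, 66.0% in surface receptors and cadherins, 66.6% in ion channels and transporters, and 68.1% in plakins and junction scaffolds, but the metabolic enzymes had 66.9% and the highest ratios. Membrane traffic (49.2%) and chromatin regulators (51.6%) lay below the median translational efficiency of all members, and the actin and spectrin cytoskeleton (59.9%) and motors (61.0%) above it. The 5′UTR of the representative transcript had a median of 171 nt in members and 157 nt in reference genes, and its length had a correlation of -0.05 with translational efficiency across members. The number of ATG triplets in it had a correlation of -0.14 across 394 members. After the start codon, a G was found in 14 of 17 high members with an annotated context, in 53.6% of the members between -1 and 1 and in 47.5% of the low members. The purine went the other way, in 14 of 17 high members (82.4%), 89.8% of those between and 88.8% of the low ones. No test was made of either.

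Footprints also lay on some 5′UTRs of long coding regions. Of 95 members with at least 10 footprints there, 53 (55.8%) had more footprints per base in the 5′UTR than in the CDS, as did 790 (25.6%) of 3082 reference genes with as many. The members with the greatest excess, picked after their values were seen, were mostly low ones. *Kmt2e*, a regulator of chromatin, had 26 footprints on 461 nt of 5′UTR and 50 on a CDS of 5601 nt, a log2 density ratio of 2.66, and lay at -3.01. *Mbd5*, a methyl-CpG-binding domain protein, had a log2 density ratio of 2.21 and lay at -2.78, and *Trpm7* had 34.8 footprints on 285 nt of 5′UTR, a ratio of 2.15. Density on the CDS is the denominator of this ratio and the numerator of translational efficiency, so low members have high ratios by construction in part. The minimum of 10 footprints also selects on the numerator of the ratio. It was met by 95 of the 434 members with footprints and 3082 of the 9800 reference genes, and the ratio was not computed for the others.

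How much of a CDS could be counted limits single values. The counted length covered a median of 99.2% of the annotated CDS, and at least 80% in 426 members. It was 69.8% in *Ahnak*, 75.0% in *Flna* and 50.6% in *Syne1*, the only high member that the limit of 80% removes. Words of 28 bases shared with transcripts of other genes made up over 10% of the CDS in 16 members, *Usp9x* with its Y-linked copy *Usp9y* among them, and words repeated within the CDS did so in 3 of those with footprints, namely *Eppk1*, *Ahnak* with 30.8%, and *Mki67* with 12.9%. The values of these genes are uncertain to that extent.

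Genes next to the thresholds were listed with no test. Just inside the length limit were *Tet3*, a DNA demethylase, with 5004 nt and -1.21, *Col4a1* with 5007 nt and *Kif14* with 5012 nt. Just outside were *Scrib*, a polarity scaffold, with 4995 nt and -1.18, *C3*, complement component 3, with 4989 nt and 0.86, and *Cul7*, a cullin, with 4979 nt and -1.71. Just inside the RNA limit were *Zfhx4*, a homeodomain factor, at -1.45, *Zgrf1*, a helicase, at -0.44, and *Ltbp1*, which binds latent TGFβ, at 2.17 (1.78 to 2.53) with 60.0 footprints over 54.0 and 61 RNA-seq counts. Just outside were *Fer1l5* and *Nup210l*, without footprints, and *Myo7a*, an unconventional myosin, with 4 footprints over 34.95 and 63.4 RNA-seq counts. When at least 100 counts were required in every library, 5 members instead of 18 lay above 1. *Ltbp1* was the only 1 of the 18 that this filter removed, while the reference median rose by 0.42 and the others that lost the call lay below 1 relative to it, among them *Col4a1* (0.99), *Map1b* (0.95), *Cad* (0.93), *Ticrr* (0.88) and *Casc5* (0.84).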

How the data were processed

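Ribosome profiling and RNA-seq reads were trimmed by the authors with TrimGalore and aligned to GRCm38 with STAR 2.6.1, and footprint reads from ribosomal RNA, tRNA or mitochondria were removed with Bowtie2 2.4.1 (versions per the submitters' processing notes). Reads were assigned to exons, CDS, 5′UTR and 3′UTR of each gene with Plastid, with the annotation release not given in the sources used here. The deposited counts are estimated counts that need not be whole, 1 library per file and without normalization. The RPKM values deposited by the authors use larger library totals and were not used.

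RPKM was recomputed by dividing counts by the counted length and by each library's summed exon counts, with Python 3.11.15, numpy 2.4.6 and pandas 2.3.3. No pseudocount was used. Intervals were exact Poisson intervals from scipy 1.17.1. CDS structure, coordinates and start contexts came from GENCODE M21, with the longest annotated CDS per gene name; 433 of the 434 members with footprints had a match. Protein classes and marker lists were written from textbook knowledge, and the members and lists were chosen with earlier results of these data known. The 70 named genes followed a rule: among members with at least 100 RNA-seq counts in each library and 80% of the annotated CDS counted (410), the 10 highest and 10 lowest, the highest and lowest of each class and the 3 with the largest difference between replicates; the 3 genes on either side of each threshold; the 3 longest; and 24 fixed genes. Not every gene that this rule names is reported here. Simulated counts were used to test the calculation. No interaction test was run, since wild-type libraries were not analysed here. Alternatives were each RNA-seq replicate alone, RNA-seq on the CDS, other filters, a pseudocount of 1 RPKM, no division by length, DESeq2 1.42.0 size factors and edgeR 4.0.16 TMM factors (both on rounded counts), 80% of the CDS counted, and length limits of 4000 and 7500 nt. Reads copied by PCR are not independent molecules.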

Additional observations from a re-analysis of the deposited data

Results flagged for a closer look

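Coding regions of at least 5000 nt that the other criteria left out also carried footprints, more than the floor of 3. The 14 entries that join several gene names held 2060 footprints, on 6 of them. The largest was the joined entry of *0610010B08Rik*, *Gm14308* and related zinc finger genes with 1444 footprints over 12718 and 14142 RNA-seq counts, followed by the gamma protocadherin cluster with 509 and the *Ugt1a* cluster with 77.1. Footprints of such entries cannot be assigned to a single gene. The 234 entries with fewer than 100 RNA-seq counts held 172 footprints, on 39 of them, and 4 had at least 10. *Myh11*, the smooth muscle myosin heavy chain, had 46 footprints over 9.97 and 12.3 RNA-seq counts, *Sdk2* had 20, *Vcan* 14 and *Zfhx2* 12. *Usp9y* had 7 footprints and 0 RNA-seq counts in both libraries. These genes were picked after their values were seen, and the source of their footprints was not tested.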

How the results depend on the processing

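Values are relative to the reference median, which itself shifted by 0.64 with DESeq2 size factors, 0.57 with edgeR TMM factors, 0.42 when every library needed at least 100 counts, -1.01 without division by length and -0.29 with RNA-seq on the CDS. The median of -0.90 stayed below 0 under every alternative, from -0.92 to -0.88 with either RNA-seq replicate left out. It was -0.71 with RNA-seq on the CDS, -0.93 with an RPKM above 1 and a base mean above 25, -1.15 with at least 100 counts in every library, -0.77 with a pseudocount, -0.27 without division by length, -0.84 with at least 80% of the CDS counted, and -0.86 and -1.06 with length limits of 4000 and 7500 nt. The number above 1 (18) was 5 with at least 100 counts in every library, 52 without division by length, and 33 and 2 with the limits of 4000 and 7500 nt, where more and fewer genes qualify. The number below -1 (203) was 87 without division by length (20.05%, against 21.3% of reference genes) and 328 and 72 with those length limits. With a replicate left out these numbers were 15 to 19 and 196 to 206. The difference of 0.25 between structural and chromatin classes changed sign with the RPKM and base mean filter (-0.072) and at 7500 nt (-0.25). It was 0.34 with RNA-seq on the CDS, 0.68 with at least 100 counts in every library, 0.11 with at least 10 RNA-seq counts, 0.094 with a pseudocount, 0.14 without division by length, 0.51 at 4000 nt, and 0.28 with either replicate left out. The cause was not tested. The 48 named values beyond 1 or -1 kept their side of the threshold in 371 of 404 comparisons with alternatives and changed sign in none. Of these 48 genes, 21 left the threshold in at least 1 alternative. Many of the 48 were named as extremes of the same values, which favours keeping the call. The DESeq2 and TMM factors were left out of this tally, since they move genes almost alike and the reference median removes that shift. No paired analysis was possible because the results come from no test and 1 ribosome profiling library was analysed here. With 3 or 4 footprints, as in *Greb1*, *Eml5* and *Fras1*, depth limits a value to an interval of over 3 log2 units.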
